A study of Mus musculus with 4 samples.

Results

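The enzymes and regulators of fatty acid and triglyceride synthesis were followed in epididymal white adipose tissue of weight-cycled and continuously fattened mice. The genes were listed by their known function, with earlier results of these data known, and numbered 37 in 8 roles: acetyl-CoA supply, palmitate synthesis, regulators of the carboxylase step, chain elongation, desaturation, acyl-CoA activation, triglyceride assembly and transcription factors. All 37 were among the 24421 genes of the deposited matrices, and all 37 passed the filter on low values. RNA-seq was available for 2 groups of 2 libraries from male wild-type C57BL/6J mice. Weight-cycled mice (WC1) started a high-fat diet (HFD) at 8 weeks of age, stayed on it for 8 weeks, were moved to a standard diet (SD) for 2 weeks and then had HFD again for 6 weeks. Control mice (Ctrl) started HFD at 10 weeks of age and stayed on it for 14 weeks without a break. Both groups therefore had 14 weeks of HFD in all, ended at 24 weeks of age and were on HFD when tissue was taken, and no lean or SD-only group was analysed here. The age at first HFD differed between the groups and cannot be told apart from the cycling itself.

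In de novo lipogenesis, citrate leaves the mitochondrion and is split in the cytosol to acetyl-CoA, which acetyl-CoA carboxylase turns into malonyl-CoA and fatty acid synthase extends to palmitate. Elongases lengthen palmitate and desaturases place double bonds in it. Acyl-CoA synthetases activate fatty acids, and a series of acyltransferases, a phosphatase step and a final acyltransferase build triglyceride on a glycerol phosphate backbone. In adipose tissue the pathway is driven by insulin and carbohydrate through the transcription factors SREBP1 and ChREBP, and dietary fat is known to hold it low.

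The libraries held between 61465029 and 90965297 reads assigned to genes, so 3 reads corresponded to 0.0345 to 0.0492 CPM, the deposited unit of reads scaled to library size. The member with the fewest reads in any library, Elovl7, had 43. Nothing in the labels says whether the 2 libraries of a group came from separate mice, so p-values measure the spread between these libraries, which may be technical. The tissue carried its label: the adipocyte genes Adipoq, Plin1 and Fabp4 were abundant in all 4 libraries. Of 6 epididymis genes, Lcn5, Lcn8 and Crisp1 were at 0 in all 4 libraries, and none of the 6 passed the filter. The summed CPM of the 6 was 0 in both Ctrl libraries, 3.88 in WC1 1 and 0.0318 in WC1 2, and its part in the results was not tested. The cell type marker transcripts differed between groups. The summed CPM of 12 adipocyte markers was 11195.5 and 12692 in Ctrl and 20393 and 26110 in WC1, and 9 of the 12 were called higher in WC1. The summed CPM of 13 macrophage markers was 14543 and 13373 in Ctrl and 8751 and 6119 in WC1, and 6 of the 13 were called lower. Of 6 endothelial markers 4 were called higher, and of 8 fibroblast markers 3 were called lower. Over all tested genes, 10.2% were called higher and 7.71% lower by the same rule, a limma adjusted p under 0.05. In whole tissue, fewer cells of a type and less RNA per cell cannot be told apart.

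The first comparison asked which steps of the pathway differed between WC1 and Ctrl. Of the 37 genes, 22 were called higher in WC1, 2 were called lower (Hacd3 and Lpin2) and 13 were not called, by limma on log2(CPM + 1) with a Benjamini-Hochberg adjusted p under 0.05 over all 14106 tested genes. Over all tested genes, 10.2% were called higher and 7.71% lower. The median log2 fold change of the 37 genes was 0.65, against -0.02 over all tested genes, and the range ran from -0.56 (Elovl7) to 1.32 (Scd1). Both WC1 libraries lay above both Ctrl libraries for 27 of the 37 genes (73.0%, against 32.7% of all tested genes) and below both for 6 (16.2%, against 36.6%). Only Mid1ip1, Acsl3, Acsl4 and Lpin3 had overlapping groups. Of the 37 genes, 8 had a log2 fold change of 1 or more (2.69% of all tested genes did).

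All 24 calls needed both Ctrl libraries, while the median log2 fold change of the 37 genes was 0.62 without Ctrl 1 and 0.70 without Ctrl 2. A fit with a lone Ctrl library takes its spread from the WC1 pair, and a fit with a lone WC1 library from the Ctrl pair. The median log2 range between the libraries of a group, over all tested genes, was 0.088 in Ctrl and 0.136 in WC1. Its part in these counts was not tested. Without Ctrl 1 or without Ctrl 2, limma called 0 of the 37 genes in either direction at the adjusted threshold, while of all tested genes 0.0142% were called higher and 0.0284% lower without Ctrl 1, and 0.0425% in each direction without Ctrl 2. At an unadjusted p under 0.05, 19 of the 37 were higher and 2 lower without Ctrl 1 (10.7% and 7.88% of all tested genes), and 21 were higher and 2 lower without Ctrl 2 (12.9% and 9.18%). Without WC1 1 there were 25 higher and 5 lower at the adjusted threshold (17.2% and 19.5% of all tested genes), and without WC1 2 there were 22 higher and 1 lower (10.1% and 8.73%).

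**Figure D1:**
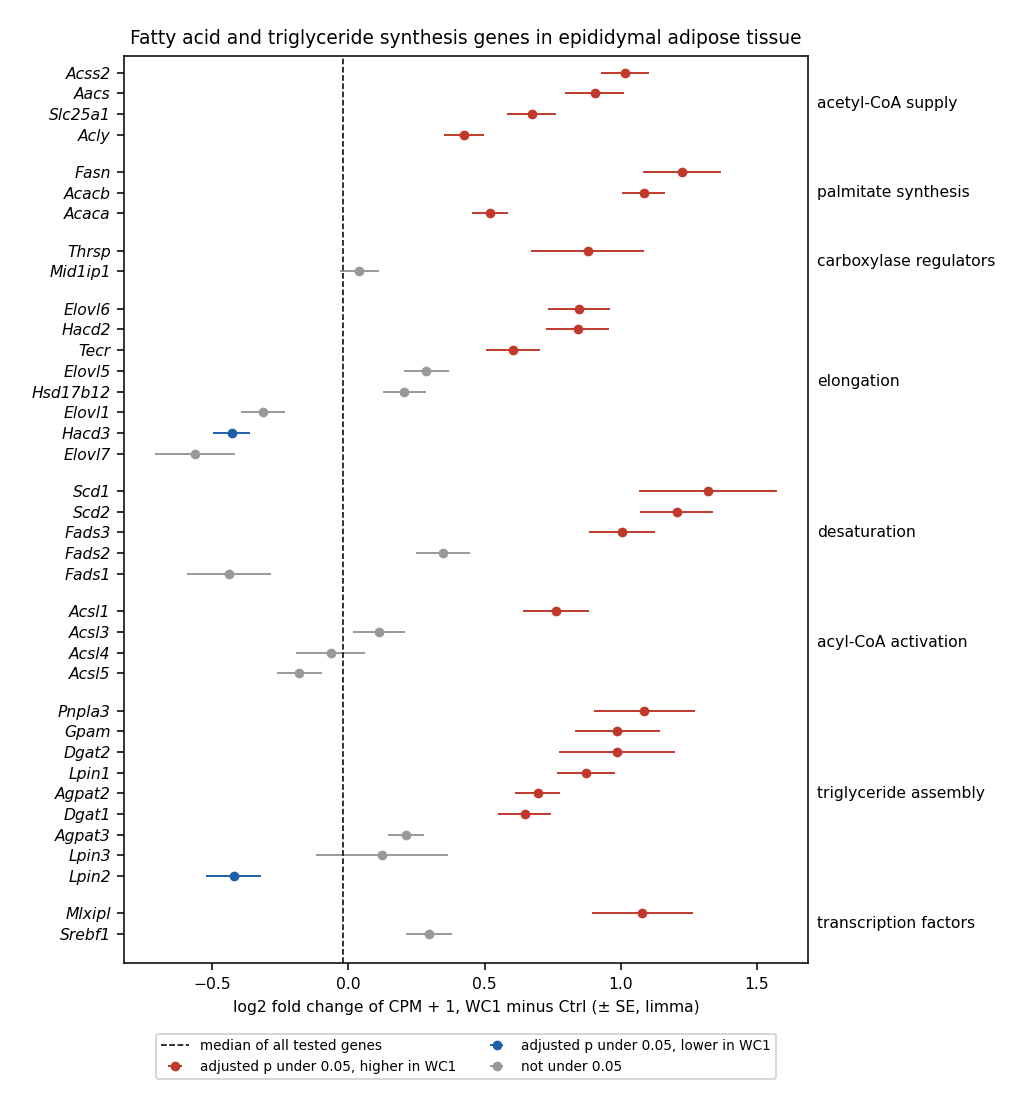
Log2 fold change of CPM + 1 (WC1 minus Ctrl, x axis) with its limma standard error for the 37 genes, grouped by role, with the median of all tested genes (-0.02) as a dashed line. The acetyl-CoA supply and palmitate genes all sit to the right of the line, from 0.43 to 1.23, whereas elongation, desaturation, acyl-CoA activation and triglyceride assembly hold genes on both sides.

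The pathway took up more of the library in WC1. The 37 genes together held 0.915% and 0.959% of the reads in the 2 Ctrl libraries and 1.81% and 2.21% in the 2 WC1 libraries. Scd1 alone gave 38.5% and 37.3% of those reads in Ctrl and 46.3% and 47.1% in WC1. Compared per transcript length, in the deposited TPM, Scd1 (1476 in Ctrl, 4088 in WC1), Dgat2 (700 and 1547) and Acsl1 (420 and 787) were the 3 highest of the 37 genes in both groups by group mean, and Elovl7 was the lowest (0.576 and 0.302). The library WC1 2 exceeded WC1 1 for 24 of the 37 genes and for 19 of the 22 called higher (45.2% of all tested genes), and it also had the higher sum of adipocyte markers and the lower sum of macrophage markers.

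**Figure D2:**
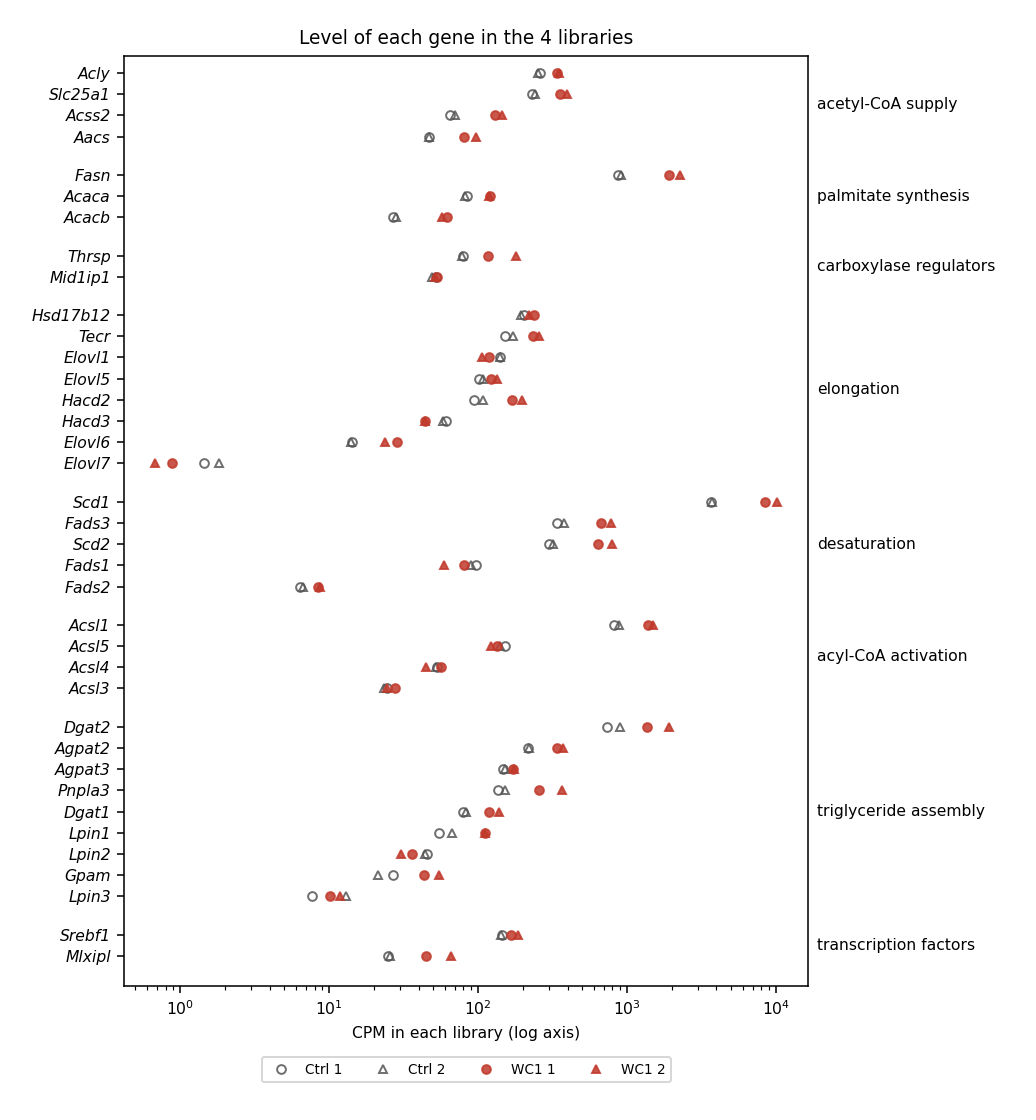
CPM of each of the 37 genes in each of the 4 libraries on a log axis, with Ctrl as open and WC1 as filled symbols. Levels run from 0.683 (Elovl7, WC1 2) to 10193 (Scd1, WC1 2). The open and filled symbols separate for 33 genes, 27 with WC1 higher (32.7% of all tested genes) and 6 with WC1 lower (36.6%).

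All 4 genes of acetyl-CoA supply were called higher, against 10.2% of all tested genes. Slc25a1, the mitochondrial citrate carrier, measured 229 and 241 CPM in Ctrl and 354 and 397 in WC1 (log2 fold change 0.67, SE 0.09, limma adjusted p = 0.019). Acly, the ATP citrate lyase that splits the exported citrate, measured 260 and 255 CPM in Ctrl and 342 and 351 in WC1, a smaller difference (0.43, SE 0.07, adjusted p = 0.027). Both genes on the citrate route thus had WC1 libraries above both Ctrl libraries. Acss2 makes cytosolic acetyl-CoA from acetate, and it rose from 65.0 and 70.6 CPM to 130 and 146 (1.02, SE 0.09, adjusted p = 0.012). Aacs activates the ketone body acetoacetate for lipid synthesis, and it rose from 46.8 and 46.7 CPM to 80.1 and 97.6 (0.90, SE 0.11, adjusted p = 0.016). By TPM, Acss2 formed 28.0% and 30.1% of the sum of Acly and Acss2 in Ctrl and 37.2% and 39.3% in WC1. Exons of Acss2 overlap Gss and Ggt7 on the other strand, which averaged 31.9 and 2.11 CPM, and although the libraries were directional, the sources used here do not say whether reads were counted by strand.

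The 3 enzymes of palmitate synthesis were called higher (10.2% of all tested genes). Acaca, the cytosolic acetyl-CoA carboxylase, measured 84.5 and 81.5 CPM in Ctrl and 121 and 118 in WC1 (0.52, SE 0.07, adjusted p = 0.017). Acacb, the carboxylase at the mitochondrial surface whose malonyl-CoA restrains fatty acid entry, measured 27.0 and 28.0 CPM in Ctrl and 61.8 and 57.0 in WC1 (1.08, SE 0.08, adjusted p = 0.0087), the smallest adjusted p of the 37 genes. Acacb formed 25.3% and 26.8% of the TPM of the 2 carboxylases in Ctrl and 35.2% and 34.0% in WC1. Fasn, the fatty acid synthase, lies at chr11:120805846-120824547 on the minus strand (GENCODE M21 on GRCm38, the assembly of mm10) and measured 894 ± 25.8 CPM in Ctrl and 2099 ± 240 in WC1 (SD, n = 2), 2.35 times the Ctrl mean. The single libraries gave 876 and 913 CPM in Ctrl and 1929 and 2268 in WC1 (1.23, SE 0.14, adjusted p = 0.016).

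The 2 regulators that act on the carboxylase were not alike in level. Thrsp (Spot14), which pairs with the product of Mid1ip1, measured 79.1 and 77.8 CPM in Ctrl and 116 and 181 in WC1 (0.88, SE 0.21, adjusted p = 0.049). With each library left out, the log2 fold change of Thrsp ran from 0.56 to 1.19. The WC1 libraries were far apart, and the call was lost in 7 of 15 alternatives. Mid1ip1, which promotes polymerisation of the carboxylase, measured 52.2 and 48.9 CPM in Ctrl and 52.8 and 51.2 in WC1, with overlapping groups (0.04, adjusted p = 0.71).

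Sequence just before the start sites is shown for 4 genes: Fasn as the central enzyme, Tecr as the last enzyme of the elongation cycle, and Hacd3 and Lpin2 as the genes called lower. Each stretch is 150 bases of the RefSeq promoter window (GRCm38.p6), read 5′ to 3′ on the gene's strand and ending at the base before the start: chr11:120824548-120824697 (minus strand) for Fasn, chr8:83594492-83594641 (minus) for Tecr, chr9:65021718-65021867 (minus) for Hacd3 and chr17:71183382-71183531 (plus) for Lpin2, the last from 1 of 3 RefSeq starts. Capitals mark CCAAT boxes (CCAAT or its reverse complement ATTGG, the letters bound by NF-Y) and E-boxes (CACGTG, the letters bound by ChREBP-MLX, USF and other helix-loop-helix factors).
Fasn: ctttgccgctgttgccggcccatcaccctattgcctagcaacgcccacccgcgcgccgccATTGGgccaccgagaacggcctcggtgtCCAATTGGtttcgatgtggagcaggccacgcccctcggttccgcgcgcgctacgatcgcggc
Tecr: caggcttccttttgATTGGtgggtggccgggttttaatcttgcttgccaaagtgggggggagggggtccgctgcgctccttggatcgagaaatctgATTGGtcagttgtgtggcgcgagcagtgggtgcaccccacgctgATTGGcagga
Hacd3: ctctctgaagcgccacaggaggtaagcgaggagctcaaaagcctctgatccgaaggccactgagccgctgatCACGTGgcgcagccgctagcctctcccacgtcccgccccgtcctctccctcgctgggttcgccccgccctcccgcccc
Lpin2: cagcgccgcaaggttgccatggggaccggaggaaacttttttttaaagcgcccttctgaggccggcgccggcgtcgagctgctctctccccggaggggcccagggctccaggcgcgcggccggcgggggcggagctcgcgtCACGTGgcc
The Fasn stretch held 3 CCAAT boxes, of which the pair nearest the start site overlap each other, and the Tecr stretch also held 3. The Hacd3 and Lpin2 stretches each held 1 E-box and no CCAAT box, but a CCAAT box lay further upstream of Hacd3 and 3 lay before another start of Lpin2.

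RefSeq windows of 250 bases before to 50 after the start were at hand for 32 of the 37 genes (41 windows), and not for Dgat1, Dgat2, Fads1, Scd1 and Scd2. Motifs were searched on both strands. A CCAAT box was in 51.2% of the 41 windows and 37.4% of all 32851 windows, and in at least 1 window of 12 of the 18 genes called higher, both genes called lower and 6 of the 12 not called. The GC box GGGCGG was in 61.0% of the windows (35.7% of all), for 11 of 18 higher, both lower and 9 of 12 not called. The E-box was in 14.6% (7.15% of all): the genes were Slc25a1 and Mlxipl among those called higher, Hacd3 and Lpin2 among those called lower, and Elovl5 and Lpin3 among those not called. The sterol response element core TCACNCCAC was in 2 windows, of Acsl1 and Mlxipl (4.88%, against 1.24% of all), and a pair of E-boxes 5 bases apart, the form of a perfect carbohydrate response element, was in 0 of all windows. A match is a run of letters and not a bound site, and both the CCAAT box and the GC box were found in genes called higher, called lower and not called.

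Of the 8 chain elongation genes, 3 were called higher, 1 lower and 4 not (10.2% higher and 7.71% lower over all tested genes), with a median log2 fold change of 0.25. Among the elongases, which set the chain length, Elovl6, the enzyme that extends palmitate to stearate, rose from 14.2 and 14.1 CPM to 28.8 and 23.9 (0.85, SE 0.11, adjusted p = 0.019). Elovl5, which acts on polyunsaturated chains, measured 102 and 109 CPM in Ctrl and 122 and 135 in WC1 (0.29, adjusted p = 0.071). Elovl1, which makes saturated very-long chains, measured 142 and 140 CPM in Ctrl and 120 and 107 in WC1 (-0.31, adjusted p = 0.057). For all 4 elongases the groups did not overlap, with WC1 higher for Elovl5 and Elovl6 and lower for Elovl1 and Elovl7, as was so of 32.7% (higher) and 36.6% (lower) of all tested genes. Elovl7 measured 1.45 and 1.83 CPM in Ctrl and 0.885 and 0.683 in WC1 (-0.56, adjusted p = 0.058). On reads recovered from the CPM values, its log2 fold change was -1.05 by edgeR (adjusted p = 0.065) and -1.05 by DESeq2 (adjusted p = 0.036). Elovl1 exons overlap Cdc20 on the other strand, which averaged 10.8 CPM.

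The other steps of the elongation cycle are shared by the elongases. Hsd17b12, the ketoacyl-CoA reductase, measured 203 and 195 CPM in Ctrl and 239 and 221 in WC1 (0.21, adjusted p = 0.13). Tecr, the final reductase, whose upstream sequence with 3 CCAAT boxes is printed above, rose from 152 and 173 CPM to 235 and 258 (0.60, SE 0.10, adjusted p = 0.025). The dehydratases Hacd2 and Hacd3 moved in opposite directions. Hacd2 rose from 93.9 and 109 CPM to 168 and 197 (0.84, SE 0.12, adjusted p = 0.019). Hacd3, one of the genes with an E-box in its upstream stretch, fell from 61.3 and 58.3 CPM to 44.4 and 43.9 (-0.43, SE 0.07, adjusted p = 0.024). Hacd2 thereby formed 53.8% and 58.5% of the TPM of the pair in Ctrl and 74.2% and 77.3% in WC1.

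Desaturation held the highest transcript and the largest fold change of the group. Scd1, the stearoyl-CoA desaturase that makes oleate and palmitoleate, lies at chr19:44394455-44407879 on the minus strand and measured 3694 and 3739 CPM in Ctrl and 8450 and 10193 in WC1 (1.32, SE 0.25, adjusted p = 0.032). The mean in WC1 was 2.51 times that in Ctrl, and without the filter on low values Scd1 was not called (adjusted p = 0.12). Scd2, its neighbour at chr19:44293674-44306864 on the plus strand, rose from 301 and 317 CPM to 636 and 801 (1.21, SE 0.13, adjusted p = 0.015). Scd1 formed between 93.0% and 93.7% of the TPM of the pair in every library, so Scd2 held nearly the same small part of the pair throughout. The Scd genes are close in sequence, and the sources used here do not say how reads shared among them were assigned. Scd3, of the same family and named after its values were seen, measured 3.71 and 0.069 CPM in Ctrl and 0.229 and 13.3 in WC1, so that each group held a low and a higher library.

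The 3 Fads genes lie side by side on chromosome 19, between 10041569 and 10196877, and did not move together. Fads3, which acts on sphingoid bases, rose from 341 and 378 CPM to 666 and 781 (1.0, SE 0.12, adjusted p = 0.016). Fads2 and Fads1 act in turn in the synthesis of arachidonate and other polyunsaturated fatty acids. Fads2 was low, at 6.40 and 6.67 CPM in Ctrl and 8.44 and 8.74 in WC1 (0.35, adjusted p = 0.070). Fads1 measured 97.4 and 90.5 CPM in Ctrl and 80.4 and 59.2 in WC1 (-0.44, SE 0.15, adjusted p = 0.11), with both WC1 libraries below both Ctrl libraries. Its log2 fold change ran from -0.66 to -0.22 with each library left out. By TPM, Fads1 formed 20.6% and 17.9% of the 3 genes in Ctrl and 10.0% and 6.54% in WC1, while Fads3 went from 76.3% and 79.1% to 87.6% and 91.3%.

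Of the 4 acyl-CoA synthetases, Acsl1 was called higher and the others were not called (10.2% higher and 7.71% lower over all tested genes). Acsl1, the main long-chain acyl-CoA synthetase of fat cells, rose from 815 and 891 CPM to 1391 and 1504 (0.76, SE 0.12, adjusted p = 0.024), and just missed the threshold without the filter on low values (adjusted p = 0.051). Acsl5 measured 152 and 140 CPM in Ctrl and 134 and 123 in WC1 (-0.18, adjusted p = 0.18). Its exons overlap Zdhhc6 on the other strand, which averaged 45.6 CPM. Acsl3, an enzyme of the endoplasmic reticulum and lipid droplets, measured 24.6 and 23.4 CPM in Ctrl and 27.8 and 24.3 in WC1 (0.11, adjusted p = 0.44). Acsl3 exons overlap Utp14b on the same strand, which averaged 2.98 CPM. Acsl4, which prefers arachidonate, measured 52.8 and 52.6 CPM in Ctrl and 56.8 and 44.5 in WC1 (-0.07, adjusted p = 0.73). The groups overlapped for both Acsl3 and Acsl4. Acsl1 formed 76.2% and 78.9% of the TPM of the 4 synthetases in Ctrl and 85.4% and 87.7% in WC1, and Acsl5 formed 17.6% and 15.3%, then 10.2% and 8.90%.

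Triglyceride assembly had 6 of 9 genes called higher and 1 lower (10.2% and 7.71% of all tested genes). At entry, Gpam, the mitochondrial glycerol phosphate acyltransferase, rose from 26.9 and 21.5 CPM to 43.5 and 54.5 (0.99, SE 0.16, adjusted p = 0.024). At the second acylation, Agpat2, whose loss causes congenital lipodystrophy in humans, rose from 218 and 221 CPM to 339 and 372 (0.69, SE 0.08, adjusted p = 0.016). Agpat3 measured 147 and 151 CPM in Ctrl and 171 and 174 in WC1 (0.21, adjusted p = 0.085), so Agpat2 formed 76.4% and 76.2% of the TPM of the pair in Ctrl and 81.2% and 82.4% in WC1. Agpat2 exons overlap Egfl7 on the other strand, which averaged 49.4 CPM.

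The lipins, phosphatidate phosphatases that make diacylglycerol, did not move together. Lpin1, the main adipose lipin, rose from 55.2 and 66.9 CPM to 112 and 112 (0.87, SE 0.11, adjusted p = 0.017). Lpin2, the other gene with an E-box in its printed stretch, measured 45.4 and 43.9 CPM in Ctrl and 35.9 and 30.4 in WC1 (-0.42, SE 0.10, adjusted p = 0.049), a call lost in 7 of 15 alternatives, among them the TPM matrix. Lpin3 measured 7.68 and 13.0 CPM in Ctrl and 10.2 and 11.8 in WC1, and the groups overlapped (0.12, adjusted p = 0.74). Lpin1 formed 49.6% and 51.1% of lipin TPM in Ctrl and 68.3% and 69.9% in WC1, and Lpin2 39.4% and 33.1%, then 21.7% and 18.3%.

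The last acylation is made by the unrelated enzymes Dgat1 and Dgat2. Dgat1 rose from 79.8 and 83.0 CPM to 118 and 138 (0.65, SE 0.10, adjusted p = 0.022). Dgat2, the more abundant, rose from 733 and 906 CPM to 1363 and 1916 (0.99, SE 0.21, adjusted p = 0.041), and was not called without the filter on low values (adjusted p = 0.075). Dgat2 was 87.8% and 89.5% of the TPM of the pair in Ctrl and 90.0% and 91.5% in WC1. Pnpla3, or adiponutrin, a patatin-like lipid droplet protein that is induced with lipogenesis, rose from 137 and 152 CPM to 256 and 369 (1.09, SE 0.19, adjusted p = 0.026, or 0.052 without the filter).

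**Figure D3:**
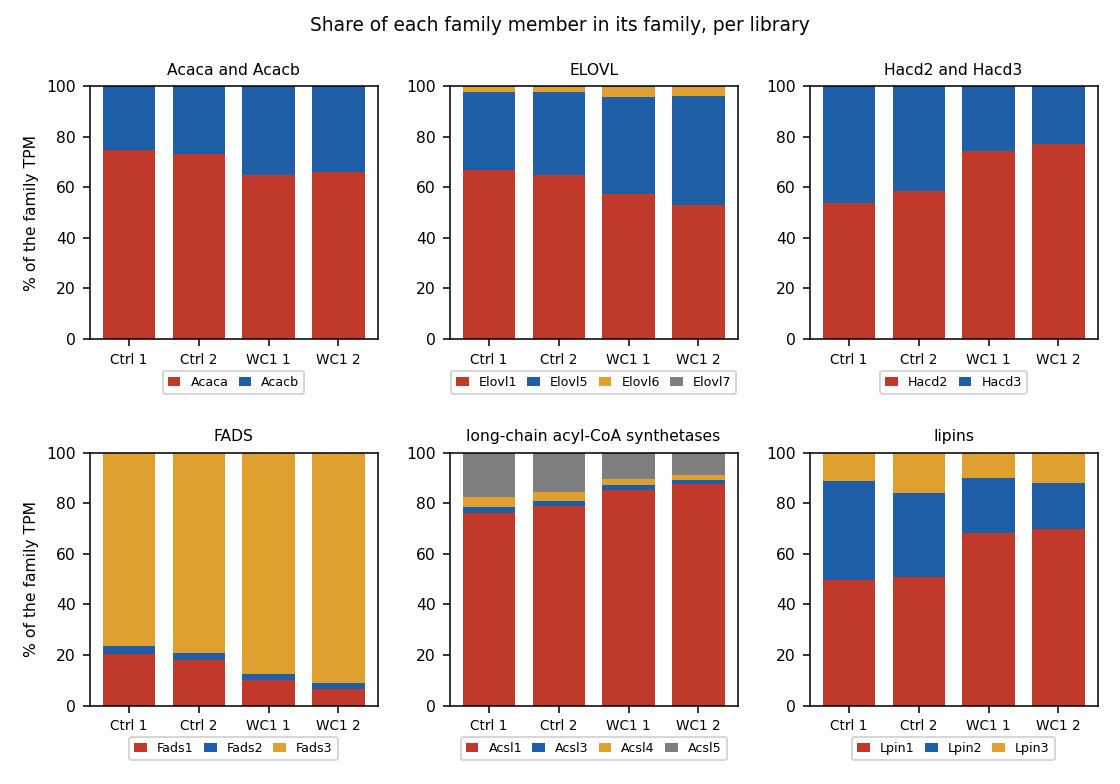
Share of each gene in the summed TPM of its enzyme family (y axis, percent) in each of the 4 libraries. Lpin1 grows from 49.6% and 51.1% of the lipins in Ctrl to 68.3% and 69.9% in WC1, and Fads1 shrinks from 20.6% and 17.9% to 10.0% and 6.54%.

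These family shares are given as descriptions of the single libraries and were not tested. An exact permutation test of 2 against 2 libraries cannot give a p below 0.333.

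Of the 2 transcription factors, Mlxipl, which encodes ChREBP, was called higher, from 24.9 and 25.6 CPM to 45.0 and 65.9 (1.08, SE 0.18, adjusted p = 0.026, or 0.052 without the filter). Srebf1, which encodes SREBP1, measured 145 and 142 CPM in Ctrl and 166 and 187 in WC1 (0.29, SE 0.08, adjusted p = 0.072), with both WC1 libraries above both Ctrl libraries. Srebf1 exons overlap Rai1 on the other strand, which averaged 30.4 CPM. The matrices are per gene, so the separate transcripts of Srebf1 and Mlxipl were not told apart, and the proteins are controlled by cleavage and by entry to the nucleus, which transcript levels do not show.

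The TPM matrix placed genes higher in WC1 on the whole, with an all-gene median log2 fold change 0.12 above that of the CPM matrix, and the 37 genes were read against that shift. In TPM, 27 of the 37 were called higher (14.6% of all tested genes) and only Hacd3 lower (4.13%). Hsd17b12, Elovl5, Fads2, Agpat3 and Srebf1 were called higher in TPM and not in CPM, at 0.24, 0.32, 0.38, 0.25 and 0.33 above the all-gene median. Lpin2 was 0.37 below that median in TPM and was not called (adjusted p = 0.12).

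The next comparison set the genes against the adipocyte markers, because 9 of the 12 markers were called higher too. The mean log2(CPM + 1) of the 12 markers was 8.50 and 8.75 in Ctrl and 9.45 and 9.91 in WC1, a difference of 1.05. Adipoq, the adipocyte hormone adiponectin, went from 630 and 784 CPM to 1398 and 1944 (1.23, SE 0.21, adjusted p = 0.027), and Plin1, the lipid droplet coat protein, from 266 and 328 CPM to 526 and 692 (1.03, SE 0.18, adjusted p = 0.026). Fabp4, the fatty acid binding protein of fat cells, measured 5375 and 5561 CPM in Ctrl and 8661 and 10499 in WC1 and was not called (0.80, SE 0.28, adjusted p = 0.11). The macrophage genes Adgre1 (675 and 618 CPM in Ctrl, 522 and 353 in WC1) and Cd68 (1320 and 1347, then 1040 and 672) were not called, with adjusted p of 0.10 and 0.0998. With the marker mean subtracted in each library, the median difference over the 37 genes was -0.41, against -1.07 over all tested genes.

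Relative to the markers, Scd1 (0.27) and Scd2 (0.15) had both WC1 libraries above both Ctrl libraries, as did 0.978% of all tested genes. Another 24 of the 37 had both WC1 libraries below both Ctrl libraries (94.5% of all tested genes), and 11 overlapped. The 11 that overlapped were all among the 22 called higher, which split into 2 above, 9 below and 11 overlapping with a median of -0.16. Among the overlapping genes were Fasn (0.17), Acacb (0.03), Pnpla3 (0.03), Mlxipl (0.03), Acss2 (-0.04), Fads3 (-0.05) and Gpam (-0.06). Among those below were Dgat2 (-0.07), whose libraries were close together in both groups, Acaca (-0.53) and Acly (-0.63). All 13 genes not called were below (median -0.94), as were both genes called lower (Hacd3 -1.48, Lpin2 -1.47). The part of adipocyte and macrophage content in these differences was not tested.

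**Figure D4:**
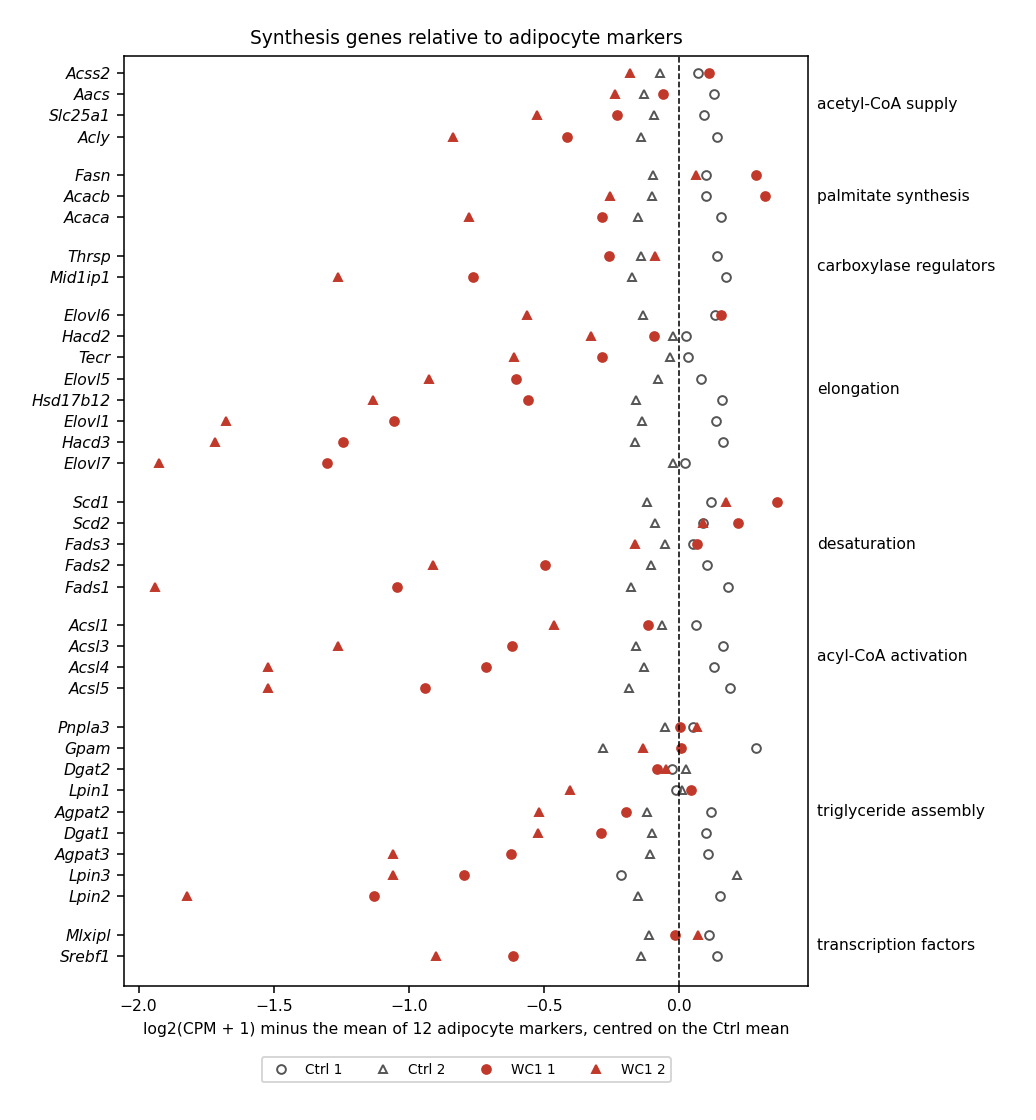
Log2(CPM + 1) of each of the 37 genes minus the mean of 12 adipocyte markers, per library, centred on the Ctrl mean (x axis, dashed line at the Ctrl mean). Scd1 (0.27) and Scd2 (0.15) lie to the right of both Ctrl libraries in both WC1 libraries (0.978% of all tested genes did). To the left lie 24 genes (94.5% of all tested genes did).

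Of 38 other genes of lipid synthesis, 31 were tested. Of these, 10 were called higher and 1 lower (10.2% and 7.71% of all tested genes), with a median log2 fold change of 0.20. Without Ctrl 1 or without Ctrl 2, limma called 0 of the 31 in either direction. The enzymes gave 7 higher and 1 lower of 15 (10.2% and 7.71% over all tested genes). Me1, the cytosolic malic enzyme that supplies NADPH, rose from 395 and 428 CPM to 629 and 706 (0.69, SE 0.11, adjusted p = 0.023). Gpat3, listed as Agpat9, rose from 27.5 and 25.9 CPM to 36.2 and 40.2 (0.50, SE 0.09, adjusted p = 0.027), and Elovl3 from 1.08 and 1.06 CPM to 3.23 and 2.95 (0.98, SE 0.12, adjusted p = 0.017). The monoacylglycerol acyltransferases Mogat1 (1.13, adjusted p = 0.024) and Mogat2 (1.45, adjusted p = 0.045) and the lipid droplet genes Bscl2 (0.64, adjusted p = 0.034) and Fitm2 (0.85, adjusted p = 0.012) were also higher. Mogat1 was low, at 1.37 and 1.47 CPM in Ctrl and 3.54 and 5.16 in WC1. Agpat4 fell from 38.6 and 36.2 CPM to 24.8 and 20.7 (-0.70, SE 0.11, adjusted p = 0.024).

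Mitochondrial fatty acid synthesis, a separate pathway that makes the lipoate precursor, had 2 of 6 tested genes called higher (10.2% of all tested genes were), the reductase Mecr (0.53, adjusted p = 0.040) and the malonyl-CoA synthetase Acsf3 (0.40, adjusted p = 0.047). Of 10 regulators 1 was called higher, a share near that of all tested genes. It was Insig1, a target of SREBP that retains it in the endoplasmic reticulum, which went from 211 and 203 CPM to 339 and 375 (0.79, SE 0.09, adjusted p = 0.014). The other regulators, among them the SREBP escort Scap, the ChREBP partner Mlx, the liver X receptor genes and the AMPK catalytic subunit genes, were not called, and their median with Insig1 was -0.10.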

How the data were processed

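Fatty acid and triglyceride synthesis transcripts were measured by RNA-seq of epididymal adipose tissue in 4 libraries, 2 Ctrl and 2 WC1, grouped by their labels. The submitters' processing notes name fastp, HISAT2, StringTie and mm10. Not given in the sources used here are the read counter, the annotation, the use of strand and the treatment of shared reads. The matrix that the authors deposited as CPM was treated as a signal, counts divided by a rescaled library size, because its columns sum to 97.6% to 105% of the 1000000 to which the TPM columns sum. Whole reads were recovered from it (100% of values within 0.01 read of a whole number). The second deposited matrix held TPM.

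A gene entered the tests if 2 or more libraries reached 0.5 CPM (14106 genes, with 10315 removed). WC1 and Ctrl were compared by limma 3.58.1 in R 4.3.3 on log2(CPM + 1), two-sided, with moderated variance and an abundance trend, and Benjamini-Hochberg adjusted over all 14106 genes at 0.05. Fold changes on this scale are understated for low genes. The alternatives were pseudocounts of 0.5 and 2, no filter, a mean of at least 5 CPM, TPM, median-of-ratios and quantile scaling, edgeR 4.0.16 and DESeq2 1.42.0 on recovered reads, a replicate block, leaving out each library, and adjusted p under 0.1 with at least a 2-fold change. On the recovered reads edgeR called 1476 genes higher and 1007 lower, and DESeq2 2125 higher and 1736 lower, against 1443 and 1088 by limma.

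On simulated data for this comparison (14106 genes, 200 changed), limma recovered 100% of 4-fold and 75% of 2-fold changes. That was 175 of the 200 changed genes, with 25 false calls beside them. Changes under 2-fold were not simulated. Replicates were not duplicates: the chi-square of their reads per degree of freedom was 36.9 in Ctrl and 93.4 in WC1. Every one of the 37 genes was named, and each called gene of the 38 other genes. Of the marker lists, Adipoq, Plin1, Fabp4, Adgre1 and Cd68 were to be named, besides genes at 0. The 37 genes, the other lists and the tests were chosen with earlier results of these data known. The gene sets were not tested as sets. Of the 38 other genes, 6 were below the filter and 1 was not matched to a symbol in the matrices. Of the marker lists not described in the text, the calls were 0 of 5 mesothelial, 0 of 6 T and NK cell, 1 of 4 B cell (higher), 1 of 5 erythroid (higher), 1 of 1 tested skeletal muscle (higher) and 1 of 3 tested brown adipocyte genes (Elovl3, higher), beside 10.2% higher over all tested genes. The B cell markers summed to 4.31 and 2.59 CPM in Ctrl and 7.24 and 26.4 in WC1 (median log2 fold change 1.35), and the erythroid genes ran from -3.49 to 4.85 on the log2 scale. The part of these cells in the results was not tested.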

Additional observations from a re-analysis of the deposited data

How the results depend on the processing

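Of 37 synthesis genes, 22 were called higher and 2 lower. The higher count was 8 with adjusted p under 0.1 and at least a 2-fold change (2.55% of all tested genes). Under the other alternatives that kept all 4 libraries it was 16 to 27, while 4.35% to 15.1% of all tested genes were called higher. Leaving out each library gave 0 to 25 higher and 0 to 5 lower, with 0 in both directions without Ctrl 1 and without Ctrl 2. In those fits the lone Ctrl library was assumed to vary like the WC1 libraries. In the fits without WC1 1 or WC1 2, the lone WC1 library was assumed to vary like the Ctrl libraries. The lower count was 1 without the filter (2.93% of all tested genes), 1 in the TPM matrix (4.13%), 4 by DESeq2 (12.3%), 0 with the 2-fold rule (1.46%), and 4 with the replicate block (10.6%), which gave 23 higher (12.5%). The lower counts were thus near or below the shares over all genes. The shared numbers of the libraries rest on a correlation of 0.19 between the deviations of only 2 pairs, so pairing was not established. The median log2 fold change was 0.79 in TPM and 0.54 to 0.72 with each library left out. Among the 38 other genes, the higher count of 10 was 6 without the filter (4.35% of all tested genes), 2 with the 2-fold rule (2.55%) and 0 to 15 with each library left out (0.0142% to 17.2%), and the lower count of 1 was 0 with the 2-fold rule and 0 to 2 with each library left out. Directions turned only for genes that were not called: Acsl4 (0.056 in TPM and -0.24 to 0.11 with a library left out), Mid1ip1 (-0.0061 to 0.086) and Lpin3 (-0.22 to 0.47). Without the filter, Scd1, Dgat2, Acsl1, Pnpla3, Mlxipl, Thrsp and Lpin2 lost their calls (4.35% of all 18132 genes were then called higher). The causes of these changes were not tested. Depth limits Elovl7 most, with as few as 43 reads in a library.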
